A study of Homo sapiens with 6 samples.

Results

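The genes described here are the 10 rows of the table that encode chains of HLA class II molecules: HLA-DRA, HLA-DRB1, HLA-DRB5, HLA-DPA1, HLA-DPB1, HLA-DQA1, HLA-DQB1, HLA-DMA, HLA-DMB and HLA-DOA. They were taken by name, and all 10 were found among the 58735 genes of the table. Levels came from RNA sequencing of Raji, a B-cell line derived from a Burkitt's lymphoma, whose cells in both groups carried a GFP-ffluc reporter (green fluorescent protein with firefly luciferase) and grew in RPMI with 10% FBS. The treated group received bryostatin-1, a marine macrolide that activates protein kinase C, at 1 nM and the control group its solvent, DMSO, both overnight and at 37 °C. Each group had 3 libraries. The labels do not say that these came from separate cultures, so each p-value rests on a spread between libraries that may be only technical. Raji stands for 1 lymphoma-derived line, and what follows holds for that line only.

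Class II molecules are heterodimers of an alpha and a beta chain. HLA-DR, HLA-DP and HLA-DQ carry peptides from the endocytic pathway to the surface of antigen-presenting cells, B cells among them, where CD4+ T cells read them. HLA-DM, formed by HLA-DMA and HLA-DMB, exchanges the placeholder peptide of the invariant chain CD74 for antigen in the endosome, and HLA-DO, formed by HLA-DOA and HLA-DOB, restrains HLA-DM. Their promoters share X and Y box elements, bound by the RFX complex, CREB family members and NF-Y, on which the coactivator CIITA assembles.

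All 10 genes lie on chromosome 6 in the build hg38, and 2 sets of sequences show what these genes share. The beta chain genes HLA-DRB1 (chr6:32578769-32589848, minus strand) and HLA-DRB5 (chr6:32517343-32530287, minus strand) are close copies, which matters for the reads given to each. Over the 801 coding bases of their longest GENCODE transcripts they were identical at 749 (93.5%). Of the 52 differences, 37 fell in bases 1 to 400 and 15 in bases 401 to 801. The 60-base window with the most differences, coding bases 85 to 144 counted from 1 at the start codon, held 10. It is shown 5′ to 3′ with the differing bases in capitals.
HLA-DRB1: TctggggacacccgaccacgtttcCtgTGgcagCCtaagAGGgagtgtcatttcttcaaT
HLA-DRB5: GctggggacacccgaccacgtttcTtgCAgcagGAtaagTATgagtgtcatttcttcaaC
The longest stretch without a difference ran for 98 bases, from coding base 532 to 629. These are reference sequences, and the alleles of the Raji cells were not read.

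The promoters were read from RefSeq (build GRCh38.p14), from 250 bases before each gene's start to 50 after it, and 9 of the 10 genes had an entry. The search used GNAACNGA for the core of the X box and ATTGG for the core of the Y box, on both strands, letters chosen after these promoters had been read. The X core stood in a promoter of 6 of the 9 genes and the Y core in 8 of 9. In all 35116 promoters of that length the shares were 12.9% and 34.6%. An X core 30 to 36 bases ahead of a Y core on the same strand occurred in 4 of the 9 genes and in 34 (0.0968%) of all promoters. Since the letters were chosen on these promoters, their higher shares are a description and no test. The 9 genes had 10 entries, with more than 1 for HLA-DPA1, and a gene counted if any entry matched. Those 34 promoters include the ones of the 4 genes. These 4 windows are shown 5′ to 3′ on the gene's strand, with both cores in capitals. The search itself held their spacing to 30 to 36 bases.
HLA-DRB1: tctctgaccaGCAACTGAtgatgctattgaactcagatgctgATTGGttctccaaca
HLA-DRB5: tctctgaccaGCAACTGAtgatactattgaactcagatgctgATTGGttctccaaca
HLA-DQA1: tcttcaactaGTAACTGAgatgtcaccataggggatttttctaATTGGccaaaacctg
HLA-DOA: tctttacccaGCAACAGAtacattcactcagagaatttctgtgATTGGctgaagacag
The windows lie at chr6:32589880-32589936 for HLA-DRB1, chr6:32530363-32530419 for HLA-DRB5, chr6:32637295-32637352 for HLA-DQA1 and chr6:33009644-33009701 for HLA-DOA. From the start of 1 core to the start of the other there were 32 bases in both DRB genes and 33 in HLA-DQA1 and HLA-DOA. The DRB windows differed by G23A, with HLA-DRB1 first and positions counted from 1 at the window's 5′ end. A match of letters is a description of the sequence, not a bound site.

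The libraries held 19405370 to 24468270 reads on genes. B-cell markers were present, with all 8 listed genes tested and a summed level of 950 to 1488 FPKM in DMSO and 1016 to 1391 FPKM in bryostatin libraries. FPKM is a fragment count scaled by gene length and library size. Markers of T cells summed to 3.26 to 11.9 FPKM with DMSO and 3.53 to 13.6 FPKM with bryostatin, nearly all of it from TRAC, while the other 6 were each at 0.321 FPKM or less and CD2 was at 0. Those of monocytes and dendritic cells summed to 0.678 to 3.65 FPKM and 1.04 to 3.57 FPKM, with 2 of the 8 at 0 in every library. Of the 6 epithelial and fibroblast markers, 3 were at 0 throughout.

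HLA-DRA stood far above the other chain genes, and the remaining 9 formed a ladder with mostly overlapping steps. In DMSO libraries the mean level per kilobase was 1494 ± 40.7 FPKM (SD, n = 3) for HLA-DRA, 98.4 ± 23.3 for HLA-DRB1, 82.1 ± 18.6 for HLA-DOA and 76.6 ± 13.1 for HLA-DMA. HLA-DRB5 and HLA-DPA1 followed at 64.9 ± 3.89 and 64.8 ± 6.98 FPKM, then HLA-DPB1 at 52.5 ± 8.95 and HLA-DQA1 at 44.6 ± 11.1. HLA-DMB at 21.3 ± 9.74 and HLA-DQB1 at 11.3 ± 2.97 FPKM were the lowest. Between neighbours in this order, the ranges of the 3 libraries were separate only for HLA-DRA and HLA-DRB1 and for HLA-DQA1 and HLA-DMB. With bryostatin the order was HLA-DRA, HLA-DRB1, HLA-DMA, HLA-DOA, HLA-DPA1, HLA-DPB1, HLA-DRB5, HLA-DQA1, HLA-DMB and HLA-DQB1. HLA-DRA made up 71.3% to 77.7% of the summed FPKM of the 10 genes, and its level ranked between 15 and 30 among all genes of a library.

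The length used for FPKM bears on this order. For HLA-DRA, HLA-DRB1 and HLA-DRB5 the table's gene length equalled that of the longest coding GENCODE transcript. It was 4.35 times as long for HLA-DQA1, 3.37 for HLA-DPA1, 3.33 for HLA-DMB, 2.83 for HLA-DQB1, 2.26 for HLA-DMA, 1.79 for HLA-DPB1 and 1.15 for HLA-DOA. Scaled to that transcript instead, the mean over the 6 libraries would be 204.1 FPKM for HLA-DPA1, 175.4 for HLA-DQA1 and 159.5 for HLA-DMA, all above the 92.97 of HLA-DRB1. The place of HLA-DRA at the top, with 1403 FPKM on either length, did not depend on this. Ratios of FPKM between groups do not depend on the length, since a gene has 1 length in every library. On the log2(FPKM + 1) scale used below, the added 1 leaves a small dependence. The log2 change of HLA-DQB1, for example, was -0.35 on that scale and -0.38 with 0.1 added instead.

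The question of the comparison was whether transcripts differed between cells held with bryostatin and with DMSO. No chain gene passed an adjusted p of 0.05 in limma, out of 10 tested, and 0% of the 11071 genes tested did. Of the 10 genes 9 had a lower mean with bryostatin, where 46.1% of all genes tested did, and HLA-DMB was the exception. Their median log2 change was -0.23, beside 0.02 for all genes tested, and limma's adjusted p ranged from 0.232 to 0.926. At an unadjusted p under 0.05 limma gave 1 chain gene, HLA-DRB5, and 7.18% of all genes with a lower level. HLA-DRB5 was also the 1 gene of the 10 that was lower in every bryostatin library than in any DMSO library, as 10.7% of all genes were. Voom weights on reads gave no call either, for chain genes or for any gene. Without DMSO replicate 3 limma called 267 genes, but still none of these 10. Libraries were also compared by a mean chi-square per gene of their reads, lower for more alike libraries. DMSO replicate 3 stood at 45.9 and 47.3 from DMSO replicates 1 and 2, which stood at 22.5 from each other. From bryostatin replicates 1 to 3, DMSO replicate 3 stood at 43.3, 25.3 and 29.6. The cause was not tested. Fewer cells with a transcript and less of it per cell cannot be told apart in these samples.

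The median was nearer 0 without either of 2 libraries. Without DMSO replicate 2 it was -0.13 and without bryostatin replicate 2 it was -0.08, and in either case 7 of the 10 genes had a lower mean with bryostatin. Without another library it lay between -0.34 and -0.25.

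**Figure D1:**
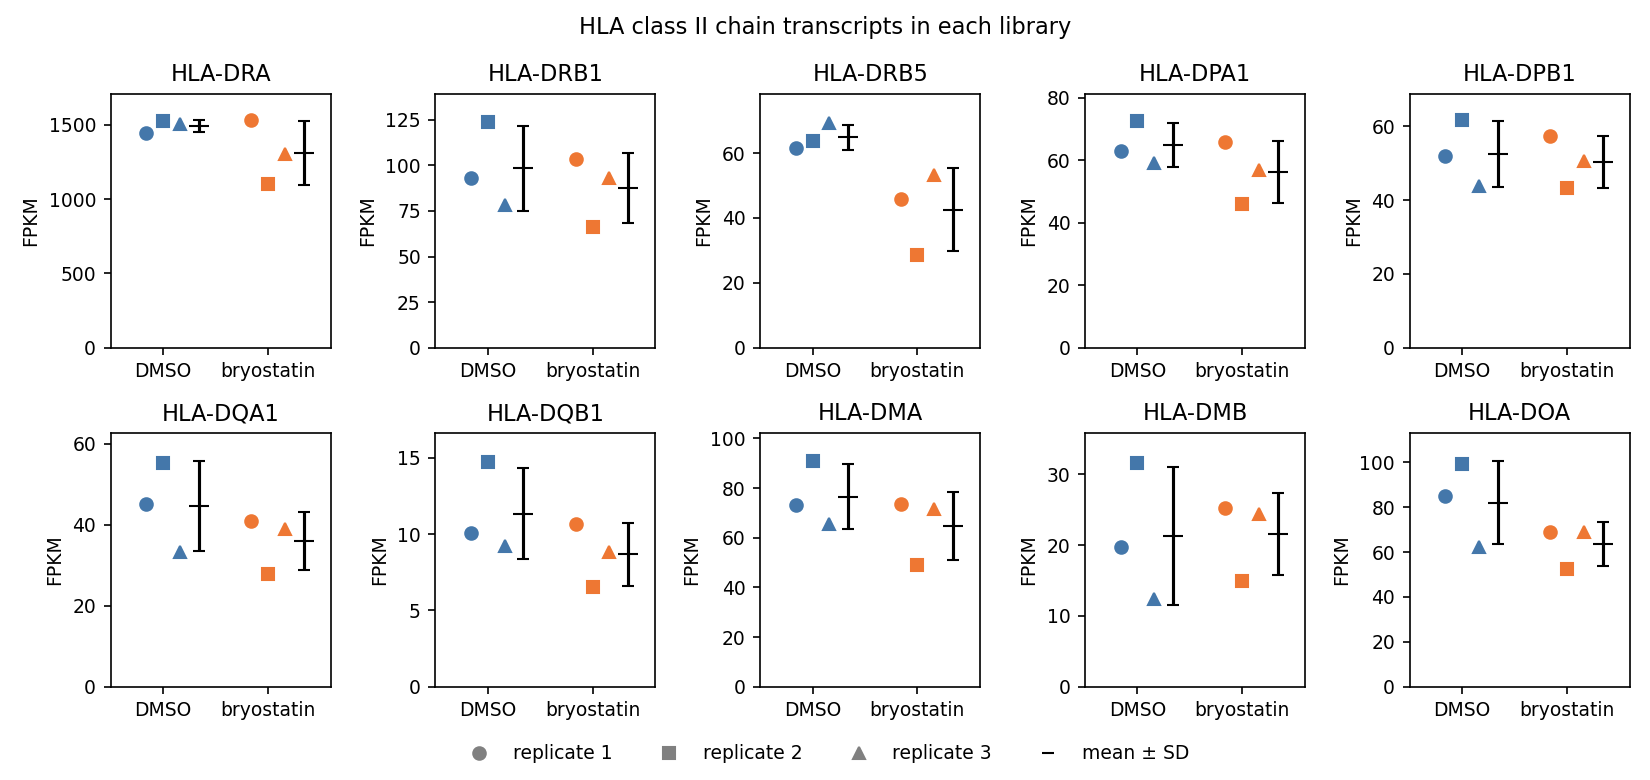
FPKM of the 10 class II chain genes in each library, with DMSO in blue and bryostatin in orange, marker shapes for replicates and the mean ± SD (n = 3) beside them; every vertical axis starts at 0 and has its own scale. The groups overlap in every panel but that of HLA-DRB5, where the DMSO libraries lie at 61.7 to 69.2 FPKM and the bryostatin libraries at 28.4 to 53.4.

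HLA-DRA (chr6:32439842-32445046, plus strand) encodes the nearly invariant alpha chain of all HLA-DR molecules. Its level was 1449, 1528 and 1505 FPKM in DMSO replicates 1 to 3 and 1531, 1103 and 1303 FPKM in bryostatin replicates 1 to 3. The DMSO libraries lay close together, and bryostatin replicate 1 was the highest of all 6. The log2 change, bryostatin minus DMSO, was -0.20 (95% confidence interval -0.51 to 0.11, limma, adjusted p = 0.442).

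HLA-DRB1 encodes the polymorphic beta chain that pairs with it. Its level was 93.3, 123.9 and 78.2 FPKM with DMSO and 103.3, 66.3 and 92.8 FPKM with bryostatin. The highest value belonged to DMSO replicate 2 and the lowest to bryostatin replicate 2, while the other 4 libraries were interleaved. The log2 change was -0.17 (interval -0.68 to 0.34, limma, adjusted p = 0.705), and its sign turned without DMSO replicate 2 (0.01) or bryostatin replicate 2 (0.02).

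HLA-DRB5 encodes another DR beta chain, carried by only some class II haplotypes, others having HLA-DRB3 or HLA-DRB4 in its place or neither. Its row held 61.7, 63.8 and 69.2 FPKM with DMSO (1915, 1762 and 1747 reads) and 45.8, 28.4 and 53.4 FPKM with bryostatin (1094, 717 and 1452 reads). Every bryostatin library was below every DMSO library, with replicate 2 the farthest. The mean was 1.56-fold lower with bryostatin on the log2(FPKM + 1) scale, a log2 change of -0.64 (SE 0.22, interval -1.15 to -0.13), at a p of 0.0201 in limma before adjustment and an adjusted p of 0.232. Over the alternatives limma's adjusted p was 0.163 to 0.586. The change was -0.38 without bryostatin replicate 2.

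Reads between the DRB copies are uncertain. Of all 50-base stretches of the HLA-DRB1 transcript 8.64% also occurred in that of HLA-DRB5, and 8.42% of those of HLA-DRB5 occurred in HLA-DRB1. The labels do not give the cells' DRB haplotype, and HLA-DRB3 and HLA-DRB4 are not analysed here, so which DRB gene gave the reads of the HLA-DRB5 row was not tested. Summed, the 2 rows held 155.0, 187.7 and 147.4 FPKM with DMSO and 149.1, 94.8 and 146.2 with bryostatin. In these sums the groups overlapped, and the log2 change was -0.35 (limma, adjusted p = 0.373). HLA-DRB5 made up 39.8%, 34% and 47.0% of the sum with DMSO and 30.7%, 30.01% and 36.5% with bryostatin.

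HLA-DPA1 (chr6:33064569-33080775, minus strand) and HLA-DPB1 (chr6:33075926-33087201, plus strand) encode the chains of HLA-DP. HLA-DPA1 was at 62.8, 72.6 and 59.0 FPKM with DMSO and 65.9, 46.1 and 56.7 with bryostatin (log2 change -0.21, interval -0.56 to 0.14, limma, adjusted p = 0.464). HLA-DPB1 was at 51.9, 61.7 and 43.8 FPKM with DMSO and 57.3, 43.1 and 50.6 with bryostatin (log2 change -0.05, interval -0.42 to 0.31, limma, adjusted p = 0.878). In both genes the highest library was DMSO replicate 2 and the lowest bryostatin replicate 2. The sign of HLA-DPB1 turned without either of these libraries, to 0.07 and 0.05. From start to end, introns included, the genes overlap on opposite strands over 4850 bases. How much of that overlap is exon in both was not measured. The strand setting of the read counting is not given in the sources used here, so reads from any shared exon cannot be assigned.

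HLA-DQA1 (chr6:32628179-32647062, plus strand) and HLA-DQB1 (chr6:32659467-32668383, minus strand) encode HLA-DQ. HLA-DQA1 was at 45.2, 55.4 and 33.2 FPKM with DMSO and 41.0, 27.8 and 39.0 with bryostatin (log2 change -0.29, interval -0.80 to 0.21, limma, adjusted p = 0.483). HLA-DQB1 was at 10.1, 14.7 and 9.20 FPKM with DMSO and 10.6, 6.51 and 8.85 with bryostatin (log2 change -0.35, interval -0.84 to 0.15, limma, adjusted p = 0.406). The groups overlapped in both, again with DMSO replicate 2 on top and bryostatin replicate 2 at the bottom. HLA-DQA1 shared 9.53% of its 50-base stretches with HLA-DQA2, and HLA-DQB1 shared 4.63% with HLA-DQB2. Those copies were at the edge of detection, HLA-DQA2 with 32 to 96 reads a library (log2 change 0.17, limma, adjusted p = 0.760) and HLA-DQB2 with 11 to 64, under the minimum of 1 FPKM for a test.

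HLA-DMA (chr6:32948613-32969094, minus strand) and HLA-DMB (chr6:32934629-32941070, minus strand) encode the peptide exchange factor. HLA-DMA was at 73.3, 91.0 and 65.5 FPKM with DMSO and 73.6, 49.2 and 71.6 with bryostatin (log2 change -0.25, interval -0.69 to 0.19, limma, adjusted p = 0.499). HLA-DMB was at 19.7, 31.6 and 12.4 FPKM with DMSO and 25.3, 14.9 and 24.5 with bryostatin (log2 change 0.08, interval -0.72 to 0.87, limma, adjusted p = 0.926). HLA-DMB varied the most within a group: its coefficient of variation was 45.8% over the DMSO libraries, whose highest and lowest values enclosed all bryostatin values. Its sign turned without DMSO replicate 3 (-0.24), bryostatin replicate 1 (-0.05) or bryostatin replicate 3 (-0.03). AL645941.2, a row that overlaps both on the same strand, shared 29.01% of the 50-base stretches of HLA-DMB and 11.6% of those of HLA-DMA, at a mean of 0.0272 FPKM. HLA-DMA also overlaps BRD2, on the other strand, over 435 bases.

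HLA-DOA (chr6:33004178-33009612, minus strand) encodes the alpha chain of the HLA-DM inhibitor. It was at 84.8, 99.1 and 62.3 FPKM with DMSO and 69.2, 52.4 and 69.1 with bryostatin. DMSO replicates 1 and 2 were above all other libraries and DMSO replicate 3 lay among those with bryostatin. The log2 change was -0.35 (interval -0.80 to 0.10, limma, adjusted p = 0.367). Its partner HLA-DOB, which was not among the 10 genes, was at 23.4, 27.1 and 16.8 FPKM with DMSO and 20.9, 13.1 and 18.4 with bryostatin (log2 change -0.34, limma, adjusted p = 0.421). Of further class II rows 4 were tested, HLA-DOB, HLA-DQA2 and the pseudogenes HLA-DRB6 and HLA-DPB2, with 3 lower and 1 higher mean and none past limma's adjusted threshold. HLA-DPB2, with 40 to 78 reads a library, was lower in every bryostatin library than in any DMSO library, as 10.7% of all genes were. Its p in limma was 0.030 before adjustment and 0.245 after.

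Within-group differences between libraries were as large as the difference between groups, and they ran the same way in most chain genes. DMSO replicate 2 was the highest of all 6 libraries in 8 of the 10 genes and bryostatin replicate 2 the lowest in 9 of 10. In the 9 genes other than HLA-DRB5, the mean log2 gap from DMSO replicate 3 up to DMSO replicate 2 was 0.58, and that from bryostatin replicate 2 up to bryostatin replicate 1 was 0.54. The mean difference between the groups was -0.20 in the same 9 genes, and 8 of them had a DMSO gap larger than their own group difference. A gap between high and low libraries of a group tends to exceed a difference between group means, so this comparison is a description only. The group accounted for a median of 25.4% of a chain gene's sum of squares on the log2 scale, beside 28.1% for all genes tested. TRAC, of the T-cell markers, was also highest of its group in DMSO replicate 2 and lowest in bryostatin replicate 2, at 3.66, 11.5 and 3.12 FPKM with DMSO and 11.7, 3.28 and 13.5 with bryostatin. So was CD1C, of the dendritic cell markers, at 0.509, 2.26 and 0.104 FPKM with DMSO and 3.01, 0.279 and 1.97 with bryostatin. Their part in the order of the chain genes was not tested.

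HLA-DRB5 had the same lowest library, bryostatin replicate 2, but did not share the order of the DMSO libraries. It was highest in DMSO replicate 3, the library that was the lowest of the DMSO group in 8 of the other 9 genes. As a measure of likeness, each gene's log2(FPKM + 1) values were centred over the 6 libraries and the root-mean-square distance between profiles was taken. HLA-DRB5 lay 0.33 from the mean of the other chain genes and HLA-DMB 0.32, while HLA-DMA, the closest, lay 0.03 from it. The nearest pair was HLA-DQA1 and HLA-DOA at 0.06, and the most distant HLA-DRB5 and HLA-DMB at 0.55. HLA-DRB6, a DRB pseudogene, was at 3.06, 2.99 and 5.38 FPKM with DMSO and 1.99, 2.19 and 3.39 with bryostatin (50 to 143 reads, log2 change -0.44, limma, adjusted p = 0.340). Like HLA-DRB5 it was highest in DMSO replicate 3, and 91.7% of 9217 other protein-coding genes lay nearer than it to the mean profile of the chain genes.

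**Figure D2:**
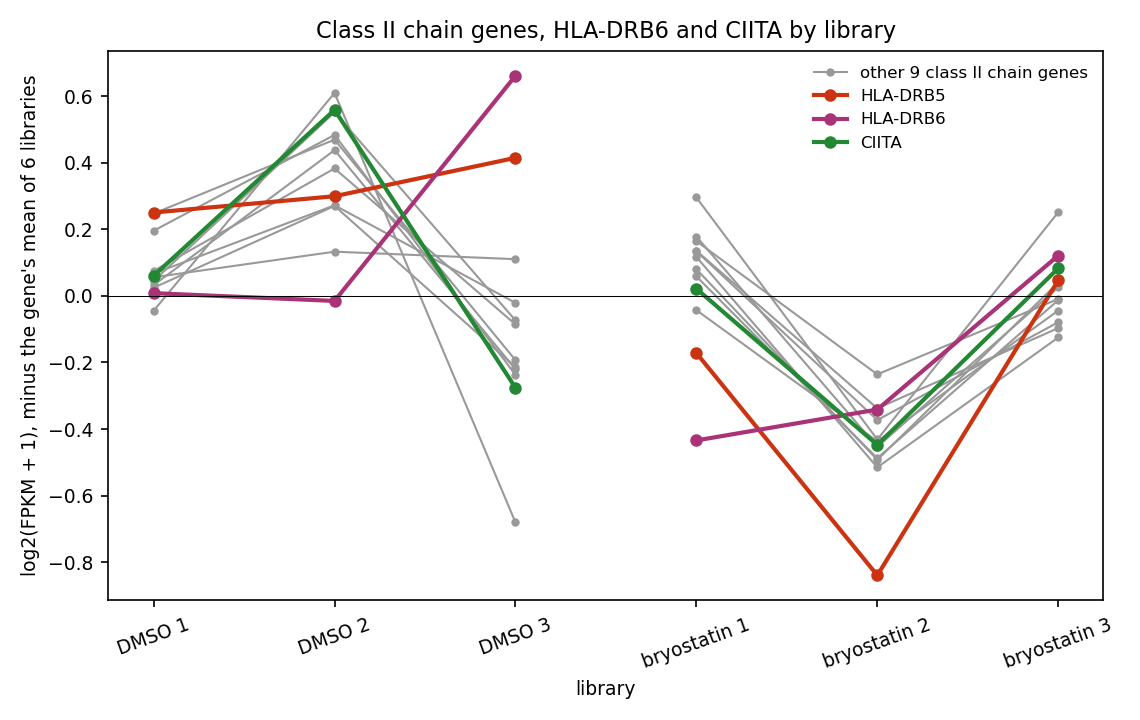
Level of each gene in each library as log2(FPKM + 1) minus the gene's mean over the 6 libraries, for HLA-DRB5, HLA-DRB6, CIITA and, in grey, the other 9 class II chain genes; lines join libraries of 1 group for reading only, since replicates have no order. Within their group, the grey genes and CIITA are highest in DMSO replicate 2 and lowest in bryostatin replicate 2. HLA-DRB5 and HLA-DRB6 are highest in DMSO replicate 3. With bryostatin, HLA-DRB5 is also lowest in replicate 2 and HLA-DRB6 is lowest in replicate 1.

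The ratio of partner chains within a library removes what both share. The alpha chain exceeded the beta chain in every library and pair, from 12.3 to 19.3 times for HLA-DRA over HLA-DRB1, 3.61 to 4.49 for HLA-DQA1 over HLA-DQB1, 2.88 to 5.30 for HLA-DMA over HLA-DMB and 1.07 to 1.35 for HLA-DPA1 over HLA-DPB1. These ratios use the table's lengths. That of HLA-DR leaves out the HLA-DRB5 row, which held 30.01% to 47.0% of the summed HLA-DRB1 and HLA-DRB5 rows. How fully the reads of the cells' own alleles reached each row was not tested. The log2 ratio of HLA-DPB1 to HLA-DPA1 was -0.28, -0.23 and -0.43 with DMSO and -0.20, -0.09 and -0.16 with bryostatin. The groups did not overlap, and the difference of 0.16 had an exact permutation p of 0.1, two-sided, the smallest that 3 against 3 can give (0.5 adjusted over 5 ratios). The log2 ratio of HLA-DRB5 to HLA-DRB1 was -0.60, -0.96 and -0.18 with DMSO and -1.18, -1.22 and -0.80 with bryostatin. Here the groups overlapped, with a difference of -0.49 (exact permutation p = 0.2, adjusted 0.5), or -0.29 without DMSO replicate 3. The differences were 0.03 for HLA-DRB1 to HLA-DRA (exact p = 0.9), -0.08 for HLA-DQB1 to HLA-DQA1 (exact p = 0.5) and 0.34 for HLA-DMB to HLA-DMA (exact p = 0.4). The first of these turned sign without DMSO replicate 3 (-0.13) or bryostatin replicate 3 (-0.02).

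**Figure D3:**
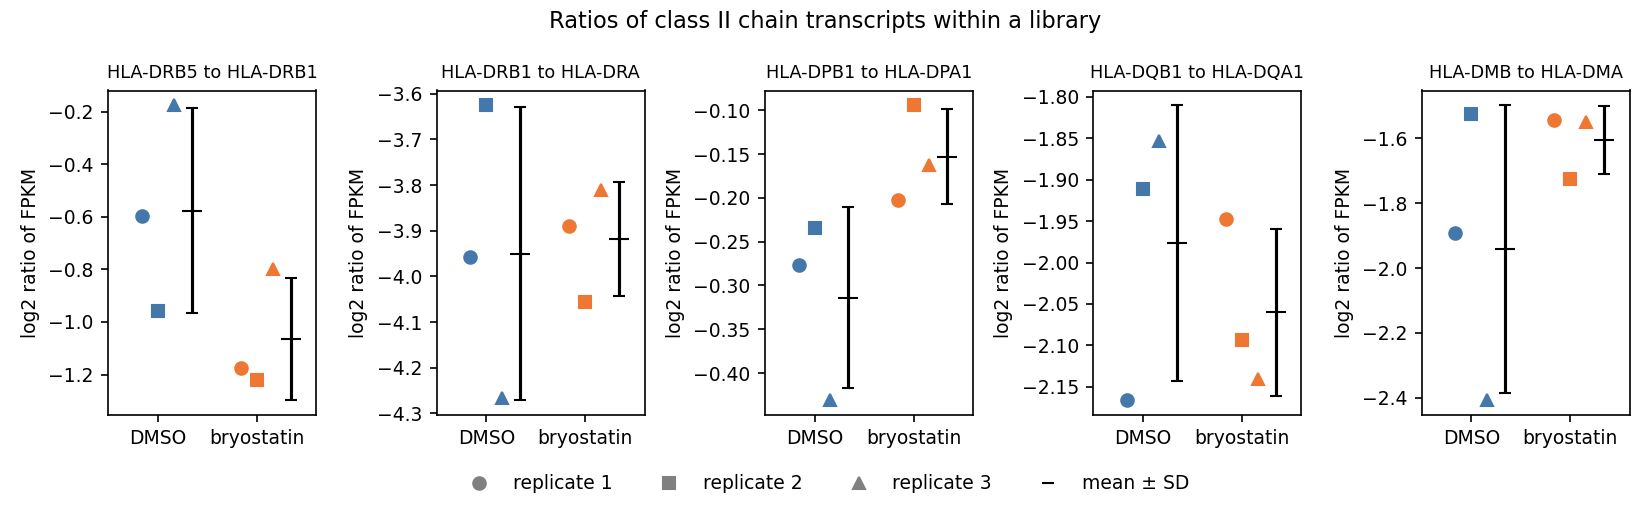
Log2 ratio of FPKM between partner or sister chains in each library, DMSO in blue and bryostatin in orange, with the mean ± SD (n = 3); vertical axes differ between panels and do not start at 0. Only the HLA-DPB1 to HLA-DPA1 panel has groups that do not overlap, at -0.43 to -0.23 with DMSO and -0.20 to -0.09 with bryostatin.

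Of the genes that act on class II transcription, CIITA, the coactivator, had the same highest and lowest library as most chain genes, DMSO replicate 2 and bryostatin replicate 2. It was at 25.3, 36.1 and 19.8 FPKM with DMSO and 24.6, 17.5 and 25.7 with bryostatin (log2 change -0.23, interval -0.78 to 0.32, limma, adjusted p = 0.619). Its profile lay 0.11 from the mean chain profile, nearer than all but 25 of the 9217 other genes (0.271%). That of HLA-DOB lay at 0.09, with 12 genes nearer. These distances describe 6 libraries that share their scaling, and carry no test. Of all 9 listed genes of the class II promoter complex, 4 had a lower and 5 a higher mean with bryostatin, none passed limma's adjusted threshold, and the median log2 change was 0.02. Of the RFX subunits, RFX5 had a log2 change of -0.09, RFXANK of -0.004 and RFXAP of 0.36 (limma, adjusted p = 0.270). Without DMSO replicate 1 or 2, or bryostatin replicate 1 or 3, the sign of RFXANK turned.

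Among the protein-coding genes outside the lists with the most similar profiles were DUSP10, CALHM2, PLEK and HS2ST1, at distances of 0.05 to 0.07. PLEK, a protein kinase C substrate of blood cells, was at 281.7, 326.8 and 210.3 FPKM with DMSO and 252.8, 182.7 and 254.3 with bryostatin. It had the same highest and lowest libraries as most chain genes, which its choice by likeness of profile favours. Its groups overlapped.

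Of the genes that escort, process or turn over class II molecules, all 9 that were tested had a lower mean with bryostatin, with a median log2 change of -0.24, and none passed limma's adjusted threshold. At an unadjusted p under 0.05 there were 5 lower, each without overlap between groups: CD74, CTSS, CTSH, LGMN and MARCHF8. Over all genes tested, 46.1% were lower, 7.18% were lower at that p and 10.7% were lower without overlap. CD74, the invariant chain, was at 2089, 2133 and 1953 FPKM with DMSO and 1815, 1474 and 1713 with bryostatin. All its DMSO libraries were above all bryostatin libraries, at a log2 change of -0.31 (interval -0.57 to -0.05, limma, adjusted p = 0.241), and it stood at 1.19 to 1.44 times the level of HLA-DRA per kilobase. CTSS, the protease cathepsin S that trims the invariant chain, had a log2 change of -0.35 (limma, adjusted p = 0.217), and LGMN, the endopeptidase legumain, of -0.54 (limma, adjusted p = 0.216). IFI30, the lysosomal thiol reductase, overlapped between groups at -0.24 (limma, adjusted p = 0.528).

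Genes of other function lie among the chain genes in the class II region. Of the 5 tested, 2 had a lower and 3 a higher mean with bryostatin, and none passed limma's adjusted threshold. The peptide transporter TAP1 had a log2 change of -0.24 (limma, adjusted p = 0.386), and the immunoproteasome subunits PSMB9 and PSMB8 of 0.31 (0.295) and 0.16 (0.519). Of the 6 tested class I genes 5 were lower, with a median log2 change of -0.24. HLA-C stood at -0.44 (limma, adjusted p = 0.227), HLA-B at -0.37 (0.244) and B2M at -0.30 (0.279), and none passed. At an unadjusted p under 0.05 limma gave these 3 as lower, HLA-C (0.015) and HLA-B (0.028) without overlap between groups. Of all genes tested 7.18% were lower at that p and 10.7% were lower without overlap.

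**Figure D4:**
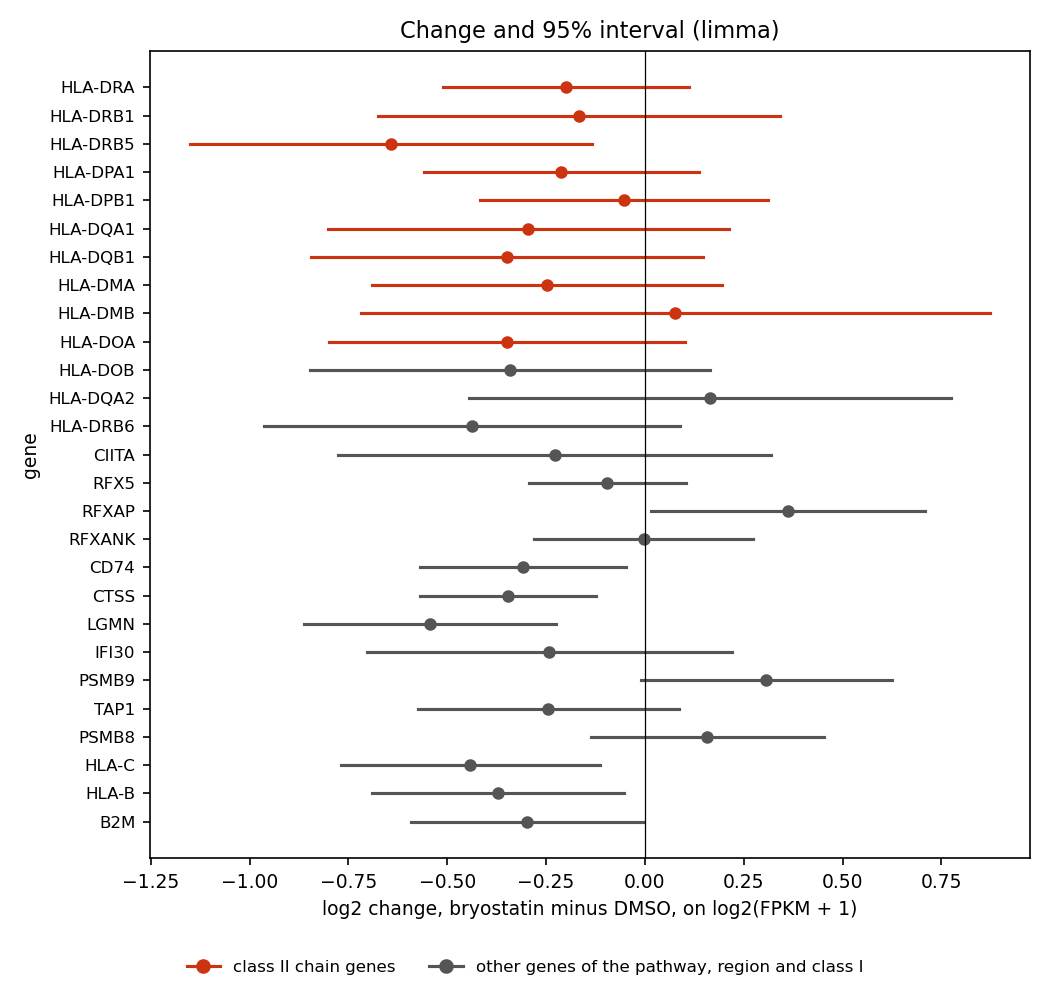
Log2 change, bryostatin minus DMSO, with limma's 95% confidence interval, for the 10 class II chain genes in red and other named genes of the pathway, region and class I in grey. Among the chain genes only the interval of HLA-DRB5 leaves out 0, before adjustment over the genes tested.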

How the data were processed

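Polyadenylated RNA from 6 libraries was measured. The deposited values are FPKM made by the authors, beside a gene length. Tools listed in the submitters' processing notes, without roles, are featureCounts 1.5.0-p3, HISAT2 2.0.5, DESeq2 1.20.0 and CASAVA, with the build hg38. Which annotation and strand setting were used is not given in the sources used here. FPKM times gene length gave whole reads for 100% of values, within 0.01 reads. Median-of-ratios factors of the deposited FPKM, over 16178 genes, were 1.00 in every library (0.898 to 1.17 for the reads), so that scaling changed nothing here.

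The 11071 genes that averaged 1 FPKM or more were compared as log2(FPKM + 1) in limma 3.58.1 (R 4.3.3), whose moderated test used an intensity trend, and p-values were adjusted by Benjamini-Hochberg over all of them, with a threshold of 0.05. The pseudocount understates changes of low genes. Within-library ratios had a two-sided exact permutation test. The fit was tested on simulated data. Counting error alone was at most 3.96% of a chain gene's level in a library (HLA-DQB1).

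The members and lists were chosen with earlier results of these data known. Named were the 10 genes, HLA-DOB, HLA-DQA2, HLA-DQB2, HLA-DRB6, CIITA, the RFX subunits, CD74, CTSS, LGMN and IFI30, up to 3 genes of each other list with the smallest p, and the 5 nearest profiles. Some of what this rule takes is not reported here. CTSH, MARCHF8, HLA-DPB2, BRD2, TRAC and CD1C were named after their values were seen. MARCHF1, MARCHF8 and TSBP1 were matched by gene ID. Alternatives covered pseudocounts, filters, scalings, moderation, voom weights on reads, the replicate number as a block and each library left out. Summing HLA-DRB1 and HLA-DRB5 was added after the data were seen.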

Additional observations from a re-analysis of the deposited data

How the results depend on the processing

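No chain gene was called under any alternative. Over all genes, limma called 1 with a pseudocount of 0.1, 1 with TPM, and between 0 and 267 with a library left out: 267 without DMSO replicate 3 (196 higher, 71 lower) and 1 without DMSO replicate 2. The median log2 change of the chain genes was -0.28 with TPM and -0.34 with quantile normalisation, and -0.34 to -0.08 with a library left out. With a library left out, HLA-DRB1 ranged from -0.32 to 0.019 (0.011 without DMSO replicate 2 and 0.019 without bryostatin replicate 2), and HLA-DPB1 from -0.17 to 0.068 (0.068 and 0.051 without the same libraries). HLA-DMB ranged from -0.24 without DMSO replicate 3 to 0.40, with -0.052 and -0.029 without bryostatin replicates 1 and 3. HLA-DQA2 ranged from -0.065 without bryostatin replicate 3 to 0.39, and DUSP10 from -0.25 to 0.019 without bryostatin replicate 2. RFXANK ranged from -0.10 to 0.066 (0.066 and 0.023 without DMSO replicates 1 and 2, 0.0099 and 0.057 without bryostatin replicates 1 and 3). The HLA-DRB1 to HLA-DRA ratio ranged from -0.13 without DMSO replicate 3 to 0.19, with -0.023 without bryostatin replicate 3. The cause was not tested. Same-numbered libraries did not deviate together (r = -0.292, -0.322 and -0.106 over 11071 genes). The labels do not say whether the numbers pair the libraries, and 3 libraries a group are too few for r to settle it. The replicate block left 0 genes called and the median of the chain genes at -0.23, and HLA-DRB5 had an adjusted p of 0.456 (limma). Each exact test of 3 against 3 can reach 0.1 at best, so those p-values say nothing about stability.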

Other observations

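HLA-DQB1-AS1, a row antisense to HLA-DQB1 that overlaps it over 850 bases, held 23, 11 and 2 reads in DMSO replicates 1 to 3 and 1, 2 and 1 reads in bryostatin replicates 1 to 3. It was singled out after its values were seen, fell under the minimum of 1 FPKM and was not tested. Without a known strand setting its reads cannot be told from those of HLA-DQB1.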
